A study of Homo sapiens with 16 samples.

Results

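Cholesterol and fatty acids are built from the same cytosolic acetyl-CoA, and 32 genes of these pathways were followed here by RNA sequencing in 2 pancreatic cancer cell lines. The genes were chosen by symbol as the factors that switch the pathways on and the enzymes they drive, and are 32 of the 63677 Ensembl identifiers in the deposited tables. Each symbol was read from 1 identifier, and 3 further identifiers that carry the symbols ACLY, EBP and NSDHL held no read in any library. MiaPaCa2 and PANC1 are established human lines from pancreatic ductal adenocarcinoma, grown in medium with fetal bovine serum. Each line was kept without drug (control, called untreated below) or treated for 24 hours with 40 nM gemcitabine, a nucleoside analog used against this cancer, with 50 uM genistein, a soy isoflavone, or with both at those doses (cotreatment). Genistein was dissolved in DMSO, and whether the controls received DMSO was not given in the sources used here. Every group has 2 libraries, labelled I and II, which gives 16 libraries, and each line stands for 1 tumor. The study's methods call them biological replicates, but nothing says they came from separate cultures, so the p values measure the spread between these libraries.

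The deposited gene counts summed to 12943482 to 31991860 reads per library, with a median of 16059396.5. Replicates differed by more than counting noise in all 8 groups, their chi-square per degree of freedom running from 2.86 to 35.2, with the largest in the PANC1 controls. Each library's log2 counts, taken against the mean of its line, were also compared with the GC content of the exons. The slope of this relation differed between replicates, with the widest gaps in PANC1. In PANC1 cotreatment it stood at -0.16 in I and 0.23 in II, and in the PANC1 controls at 0.30 and -0.07, in log2 units per 10 percentage points. In MiaPaCa2 the slope differed between treatments. It was -0.24 and -0.14 in the controls, -0.004 and -0.16 with genistein, 0.15 and 0.06 with gemcitabine and 0.05 and 0.29 in cotreatment. There the last 2 groups lay above the controls, and values corrected for GC content are given below. Of the line markers, KRT8, KRT18 and VIM were high in every library, whereas EPCAM was listed at 0 in all 8 MiaPaCa2 libraries and CDH1 reached at most 0.0213 FPKM there. Of 9 markers of other cell types, 8 lay between 0 and 0.0777 FPKM in all libraries, PECAM1, PRSS1, CPA1, INS and GCG at 0 throughout. The ninth, CD68, a lysosomal protein known from macrophages, made up nearly all of their summed level, which ran from 14.2 to 19.7 FPKM in MiaPaCa2 controls, 26.8 to 37.6 in treated MiaPaCa2, at most 130 in PANC1 controls and 156 to 221 in treated PANC1. Its part in the comparisons with control was not tested.

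Sterol regulatory element-binding proteins (SREBPs) are made as membrane proteins of the endoplasmic reticulum. When sterols are low, the escort protein SCAP carries them to the Golgi, where they are cut and released to the nucleus, and when sterols are high INSIG1 holds SCAP back. The product of SREBF2 mainly drives the cholesterol genes and the main product of SREBF1 the fatty acid genes, and rapidly growing tumor cells draw on both for membranes. In bulk libraries, fewer cells that express a gene and less RNA per cell cannot be told apart.

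SREBPs bind short DNA sites called sterol elements, and the promoters of the members were searched for them. RefSeq promoter windows on GRCh38.p14 were available for 28 of the 32 genes (40 windows), and the 250 bases before each start were searched on both strands. The sterol element TCACNCCAC occurred in 1 of these windows (2.5%), that of SREBF2, and in 0.883% of all 35116 windows. A looser form chosen after that search, TCACNCNAC, which contains the first, occurred in 5 windows (12.5%, against 2.02% of all), those of SREBF2, FDPS, HSD17B7, FADS2 and ACSS2. The box CCAAT, read by a factor that acts beside SREBPs, occurred in 24 windows (60%, against 32%), and the GC box GGGCGG in 35 (87.5%, against 42.6%). The factor gene SREBF2, the single member with the strict form, and the enzyme genes FADS2 and ACSS2, which were called in several comparisons given below, are shown 5′ to 3′ with the match in capitals, the strict form in the first and the looser form in the others.
SREBF2 promoter (chr22:41832855-41833104, + strand): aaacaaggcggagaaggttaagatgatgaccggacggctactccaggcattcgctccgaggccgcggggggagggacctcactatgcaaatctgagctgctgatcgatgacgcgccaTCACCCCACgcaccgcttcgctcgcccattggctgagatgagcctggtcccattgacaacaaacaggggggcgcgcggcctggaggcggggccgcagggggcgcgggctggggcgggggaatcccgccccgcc
FADS2 promoter (chr11:61815953-61816202, + strand): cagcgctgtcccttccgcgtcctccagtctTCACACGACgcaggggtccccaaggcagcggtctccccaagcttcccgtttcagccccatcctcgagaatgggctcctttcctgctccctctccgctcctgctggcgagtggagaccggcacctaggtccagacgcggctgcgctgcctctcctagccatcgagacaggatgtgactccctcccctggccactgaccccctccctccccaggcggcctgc
ACSS2 promoter (chr20:34876362-34876611, + strand): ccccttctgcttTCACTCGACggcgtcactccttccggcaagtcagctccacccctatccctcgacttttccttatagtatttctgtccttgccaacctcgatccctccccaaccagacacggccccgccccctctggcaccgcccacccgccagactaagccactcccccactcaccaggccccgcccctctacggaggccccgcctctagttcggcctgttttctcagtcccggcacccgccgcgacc
The first base of the match lies at position -133 from the start in SREBF2, -220 in FADS2 and -238 in ACSS2. A match is a description of these letters and not evidence of binding.

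The untreated lines expressed the pathway at high levels. FPKM (fragments scaled to transcript length and library depth, a level per length) was above 1 in both lines for 31 of the 32 genes, the exception being STARD4. The highest in FPKM was FDPS, which makes farnesyl diphosphate, with 298 and 279.9 FPKM in the MiaPaCa2 controls and 268 and 224 in the PANC1 controls. ACLY, which makes cytosolic acetyl-CoA from citrate, ranked 2 in MiaPaCa2 and 4 in PANC1. The order is that of the deposited FPKM, and counts per annotated exon base would place ACLY above FDPS. Over all 16 libraries FDPS averaged 311 FPKM from 173 CPM (counts scaled to library size alone) with 3718 bases of annotated exon, and ACLY 211 FPKM from 589 CPM with 5208 bases. Neighbours in the order often lay within their spread, as for EBP (105.97 and 113.9 FPKM) and SCD (109.2 and 107.3 FPKM) in MiaPaCa2.

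**Figure D1:**
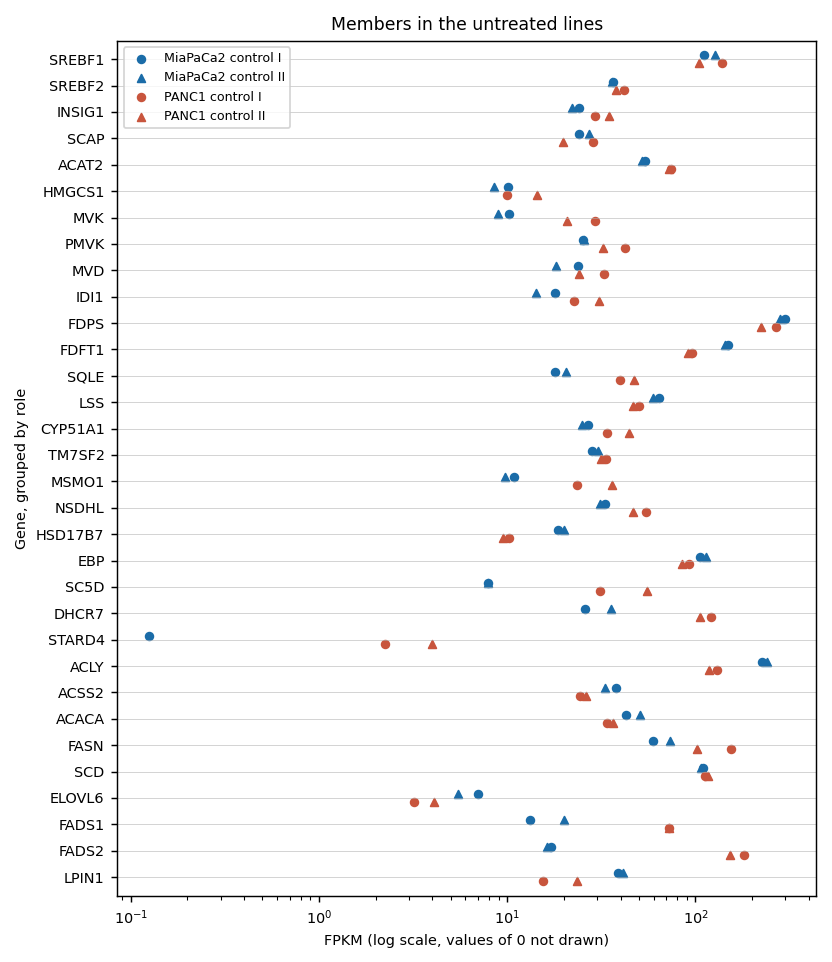
FPKM (log axis) of the 32 genes in the 2 control libraries of each line, with circles for I and triangles for II. FADS1, FADS2, SC5D, DHCR7 and STARD4 lie to the right in PANC1, where FADS2 had 180.2 and 153 FPKM against 17.01 and 16.2 in MiaPaCa2.

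Between the untreated lines the largest differences were those of the sterol carrier STARD4, the desaturases FADS2 and FADS1 and the late sterol enzyme SC5D, all higher in PANC1, and of the elongase ELOVL6, lower in PANC1. Of the 32 genes, 20 were called, 14 higher and 6 lower in PANC1. The background was high, since 52.3% of all genes tested were called and 27.9% were higher in PANC1. A member was called where the adjusted p was 0.05 or less, the log2 fold change was 0.4 or more in size and the group mean exceeded 1 FPKM. SE is the standard error of the log2 fold change. The median log2 difference was 0.39 over the 32 genes and 0.06 over all genes tested.

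STARD4, a carrier of cholesterol between membranes, had 1 and 0 reads in the MiaPaCa2 controls and 132 and 349 in the PANC1 controls. Its level was at least 42.2-fold higher in PANC1, against a floor of 3 counts per library. FADS2 and FADS1, neighbouring desaturases of polyunsaturated fatty acids, followed. FADS2 differed by a log2 fold change of 3.32 (SE 0.15, adjusted p = 7.9e-10), and FADS1 (72.1 and 72.03 against 13.2 and 19.9 FPKM) by 2.33 (SE 0.08, adjusted p = 1.1e-10). In neither did the libraries of the lines overlap. Here and below, such a separation of 2 libraries from 2 describes the values and is not a test. How many of all genes separate in this way was not counted. SC5D (2.24) and DHCR7 (1.82), enzymes of the last steps to cholesterol, were also higher, as were MSMO1 (1.34), MVK (1.20), IDI1 (0.69), NSDHL (0.60) and ACAT2 (0.45). SQLE, the epoxidase that begins the sterol ring, stood at 39.6 and 47.2 FPKM against 17.9 and 20.4, a log2 difference of 1.19 (SE 0.09, adjusted p = 6.2e-08).

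Lower in PANC1 were ELOVL6, which elongates palmitate (3.20 and 4.10 against 7.01 and 5.45 FPKM, log2 fold change -2.15, SE 0.19, adjusted p = 3.8e-07), HSD17B7 (10.2 and 9.46 against 18.6 and 19.97 FPKM, log2 fold change -1.09, SE 0.12, adjusted p = 3.7e-06) and ACLY (130.2 and 119 against 226 and 239 FPKM, log2 fold change -0.90, SE 0.09, adjusted p = 1.2e-06). The libraries of the lines did not overlap in any of the 3. LPIN1, ACSS2 and FDFT1 had log2 values of -0.89, -0.87 and -0.71 and were also called lower. INSIG1 was higher in PANC1 by 0.51 (SE 0.11, adjusted p = 0.00087). SREBF1, SREBF2, HMGCS1 and SCD were not called, with -0.15 (95% interval -0.57 to 0.26, adjusted p = 0.51), 0.34 (95% interval 0.06 to 0.61, adjusted p = 0.032), 0.25 (95% interval -0.15 to 0.64, adjusted p = 0.26) and 0.05 (95% interval -0.10 to 0.21, adjusted p = 0.53). Of these, SREBF2 passed the adjusted p and missed the fold limit.

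FASN, the fatty acid synthase, was called higher in PANC1 by 0.79 (SE 0.29, adjusted p = 0.028), but its value turned to -0.17 after a correction for GC content, and the call was lost without MiaPaCa2 control I (0.64, adjusted p = 0.18), MiaPaCa2 control II (0.90, adjusted p = 0.059) or PANC1 control I (0.47, adjusted p = 0.20). With the correction the split of the calls became 10 higher and 13 lower, while the median over all genes moved by -0.29. INSIG1 (0.34), ACAT2 (0.23) and NSDHL (0.29) then fell below the fold limit, and MVK moved to 0.78. SREBF1 was then called lower in PANC1 (-0.85, adjusted p = 1.1e-08), as were SCAP, ACACA, EBP, TM7SF2, LSS and FDPS, with corrected values from -0.73 to -0.51.

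Gemcitabine moved members in both directions in MiaPaCa2. Early and late genes of cholesterol synthesis (ACAT2, MVD, IDI1 and TM7SF2) and ACSS2 rose, and the factor SREBF1 and 4 genes of fatty acid and glycerolipid synthesis (ACACA, SCD, ELOVL6 and LPIN1) fell. Called were 10 of the 31 members tested, 5 higher and 5 lower, a share of 32.3% that lay close to the background of 29.6% of all genes tested. STARD4 was not tested in MiaPaCa2 because its reads were too few. The median log2 fold change of the members was 0.02, and that of all genes -0.01. After the GC correction the calls split into 4 higher and 7 lower, MVD dropping out and SCAP (-0.42) and FASN joining.

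Among the members the largest rise was that of TM7SF2 (ENSG00000149809, chromosome 11, 64879317 to 64883856 on GRCh37), a sterol reductase. It stood at 28.1 and 30.5 FPKM in the controls and 77.2 and 75.8 with gemcitabine, a log2 fold change of 1.37 (SE 0.14, adjusted p = 1.8e-05). ACAT2, the thiolase that joins the first acetyl-CoA units, went from 54.2 and 51.8 to 91.1 and 97.7 FPKM (log2 fold change 0.70, SE 0.08, adjusted p = 6.7e-05). For both genes the treated libraries lay clear of the controls. MVD, which decarboxylates mevalonate diphosphate, went from 23.9 and 18.2 to 35.5 and 29.9 FPKM (log2 fold change 0.80, SE 0.18, adjusted p = 0.0037). Its call was lost without gemcitabine I (0.66, adjusted p = 0.056) and with the GC correction, where the value was 0.34. ACSS2, which makes acetyl-CoA from acetate, rose by 0.63 and the isomerase IDI1 by 0.54 log2 units. Exon GC content was 62.7% in TM7SF2 and 63.0% in MVD, beside 46.1% in ACAT2, 51.8% in ACSS2 and 43.1% in IDI1.

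The largest fall was that of SCD (ENSG00000099194, chromosome 10, 102106990 to 102124583 on GRCh37), the desaturase that makes oleate. Its FPKM went from 109.2 and 107.3 to 66.7 and 71.8, a log2 fold change of -0.76 (SE 0.08, adjusted p = 2.8e-05). ACACA, the carboxylase that commits acetyl-CoA to fatty acids, went from 42.8 and 50.9 to 29.9 and 32.3 FPKM (log2 fold change -0.69, SE 0.08, adjusted p = 5.5e-05). The groups did not overlap in either gene, and both calls held when any of the 4 libraries was left out. SREBF1 (ENSG00000072310, chromosome 17, 17713713 to 17740316 on GRCh37) had 110.9 and 127 FPKM in the controls and 92.3 and 74.6 with gemcitabine (log2 fold change -0.60, SE 0.14, adjusted p = 0.0045). Its value was -1.003 with the GC correction and -0.45, adjusted p = 0.067 without gemcitabine II, and the call was also lost with all 16 libraries in one model (adjusted p = 0.067). ELOVL6 fell by 0.58 and LPIN1, a phosphatidate phosphatase, by 0.53 on the log2 scale.

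Several regulated steps were not called. SREBF2 (36.6 and 36.2 FPKM in the controls, 40.2 and 31.7 with gemcitabine) had a log2 fold change of 0.07 (95% interval -0.12 to 0.26, adjusted p = 0.56). INSIG1 (24.1 and 22.03, then 23.5 and 24.3 FPKM) had 0.02 (95% interval -0.21 to 0.25, adjusted p = 0.89). In both genes the difference lay within the spread between libraries. HMGCS1, which makes the precursor of mevalonate, had 10.1 and 8.47 and then 8.54 and 9.15 FPKM (log2 fold change -0.24, 95% interval -0.54 to 0.06, adjusted p = 0.19). SQLE had 17.9 and 20.4 and then 19.7 and 20.8 FPKM (log2 fold change 0.04, 95% interval -0.18 to 0.26, adjusted p = 0.79). ACLY had 226 and 239 and then 323 and 290.4 FPKM. Although its FPKM did not overlap, the count-based log2 fold change of ACLY was 0.18 (SE 0.07, adjusted p = 0.045), below the fold limit. FASN had 59.7 and 73.5 and then 93.1 and 63.4 FPKM (log2 fold change 0.07, 95% interval -0.28 to 0.42, adjusted p = 0.77), and the GC correction turned its value to -0.47, which was called.

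In PANC1, gemcitabine called only lower members. These were 6 of 32 (18.8%), against a background of 7.52% of genes called and 3.03% called lower. The median of the members was -0.25 and that of all genes 0.03. SREBF1 went from 138 and 103.9 to 68.5 and 57.3 FPKM, a log2 fold change of -1.06 (SE 0.20, adjusted p = 0.019). SCD went from 113.1 and 116.8 to 72.4 and 78.7 FPKM (log2 fold change -0.72, SE 0.08, adjusted p = 0.0033). In both genes the treated libraries lay below both controls. LSS, which closes the sterol rings, went from 50.4 and 46.5 to 30.6 and 29.9 FPKM (log2 fold change -0.66, SE 0.16, adjusted p = 0.047). ACACA had a log2 fold change of -0.64, FADS2 of -0.62 and FDFT1, the squalene synthase, of -0.52.

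SREBF1, SCD and ACACA were the members called lower with gemcitabine in both lines. In PANC1 some of these calls were lost when a library was left out, in fits where fewer of all genes were called too. The SREBF1 call was lost without gemcitabine I (-1.22, adjusted p = 0.099) or gemcitabine II (-0.90, adjusted p = 0.19), and the SCD call without gemcitabine I (-0.66, adjusted p = 0.056). LSS was lost without gemcitabine I (-0.77, adjusted p = 0.16), gemcitabine II (-0.54, adjusted p = 0.30) or control I (-0.52, adjusted p = 0.12). Fewer members, and fewer of all genes, were called without gemcitabine I or gemcitabine II. With the GC correction 10 members were called, all lower, with FASN (-0.79), INSIG1 (-0.57), HMGCS1 (-0.51) and MSMO1 (-0.60) joining. With that correction 3098 of all genes were called, 1555 of them lower. RAI1, whose exons overlap 6.75% of those of SREBF1 on the opposite strand, also had negative log2 fold changes, of -0.49 (adjusted p = 0.017) in MiaPaCa2 and -1.001 (adjusted p = 0.029) in PANC1. The library kit keeps the strand, but the strand setting of the counting was not given in the sources used here, and the part of RAI1 in the SREBF1 values was not tested.

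The remaining regulated steps were not called in PANC1. FASN had 154 and 101.96 FPKM in the controls and 88.1 and 64.6 with gemcitabine (log2 fold change -0.89, 95% interval -1.56 to -0.21, adjusted p = 0.10), with the controls far apart. INSIG1 (29.3 and 34.6, then 24.1 and 27.2 FPKM) had -0.46 (95% interval -0.77 to -0.16, adjusted p = 0.069). ACLY (130.2 and 119, then 110.6 and 114.8 FPKM) had -0.31 (95% interval -0.54 to -0.09, adjusted p = 0.086). None of the 3 passed the adjusted p. SREBF2 (41.97 and 37.7, then 38.1 and 31.9 FPKM) had -0.31 (95% interval -0.61 to -0.01, adjusted p = 0.18), HMGCS1 (9.93 and 14.4, then 9.85 and 12.87 FPKM) had -0.28 (95% interval -0.80 to 0.24, adjusted p = 0.47) and SQLE (39.6 and 47.2, then 37.6 and 43.2 FPKM) had -0.23 (95% interval -0.46 to 0.01, adjusted p = 0.21).

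**Figure D2:**
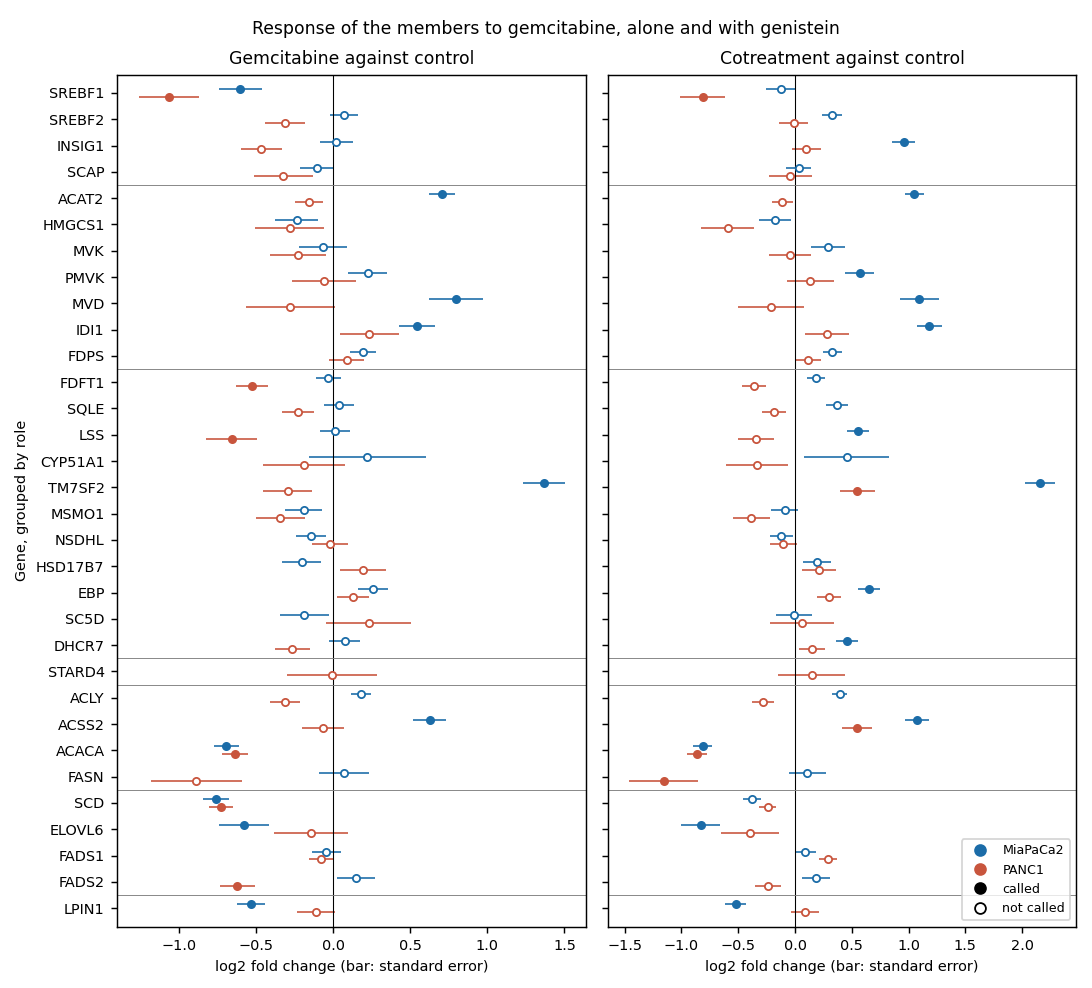
Log2 fold change with its standard error for gemcitabine (left) and cotreatment (right) against control, by gene and line, with filled points for called genes. With gemcitabine alone TM7SF2 stood at 1.37 in MiaPaCa2 and -0.29 in PANC1, while SCD stood at -0.76 and -0.72.

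The gemcitabine response differed between the lines for 8 of 32 members, tested as the difference itself in a model of all 16 libraries and judged by the adjusted p. In all 8 the value was lower in PANC1, with a background of 15.3% of genes called and 9.06% lower in PANC1. The median of the members was -0.37 and that of all genes -0.08. TM7SF2 differed by -1.76 (SE 0.24, adjusted p = 0.00076), with a rise in MiaPaCa2 and a log2 fold change of -0.29 in PANC1. ACAT2 differed by -0.96 (SE 0.12, adjusted p = 0.00041), with -0.16 in PANC1. These 2 differences were called with every library left out in turn. FADS2 differed by -0.87 (SE 0.21, adjusted p = 0.018), ACSS2 by -0.79, LSS by -0.77, FDFT1 by -0.59, ACLY by -0.59 and INSIG1 by -0.58. The differences of SREBF1 (log2 fold change -0.56, 95% interval -1.19 to 0.06, adjusted p = 0.20), SCD (log2 fold change -0.06, 95% interval -0.29 to 0.17, adjusted p = 0.72) and ACACA (log2 fold change -0.04, 95% interval -0.27 to 0.18, adjusted p = 0.82) were not called.

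Of these, INSIG1 was lost without MiaPaCa2 gemcitabine II, MiaPaCa2 control I or II, or PANC1 gemcitabine I or II (adjusted p from 0.060 to 0.096), and ACLY was lost without MiaPaCa2 control I (-0.55, adjusted p = 0.055) or PANC1 gemcitabine II (-0.53, adjusted p = 0.051). FADS2 was not called without MiaPaCa2 gemcitabine I (-0.82, adjusted p = 0.084), MiaPaCa2 gemcitabine II (-0.94, adjusted p = 0.052), MiaPaCa2 control I (-0.71, adjusted p = 0.12) or PANC1 gemcitabine II (-0.78, adjusted p = 0.070). With the GC correction FADS2 was -0.45, LSS -0.39, TM7SF2 -1.16 and ACLY -0.36, all still called, and SQLE (-0.57), HMGCS1 (-0.49) and FASN (-0.37) were among 7 further members called. Over all genes that correction called 4662, 2241 of them lower in PANC1. The count of called members changed with the library left out, and so did the count over all genes.

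Genistein alone gave mainly higher calls among the members in MiaPaCa2. There 9 of 31 members were called, 8 higher and 1 lower, a share of 29.03% against a background of 8.31% called and 4.18% called higher. The median of the members was 0.27, that of all genes -0.00, and 26 of the 31 had a positive log2 fold change. By role, the higher calls were 1 of 4 regulators, 1 of 7 mevalonate genes, 3 of 11 genes from squalene to cholesterol, 2 of 4 fatty acid synthesis genes and 1 of 4 elongation and desaturation genes. TM7SF2 went from 28.1 and 30.5 to 65.03 and 51.4 FPKM (log2 fold change 1.05, SE 0.14, adjusted p = 0.0012). INSIG1 (ENSG00000186480, chromosome 7, 155089486 to 155101945 on GRCh37), the sterol-sensing brake that is itself a target of the factors, went from 24.1 and 22.03 to 38.2 and 38.5 FPKM (log2 fold change 0.79, SE 0.10, adjusted p = 0.0010). ACAT2 went from 54.2 and 51.8 to 80.02 and 78.6 FPKM (log2 fold change 0.59, SE 0.09, adjusted p = 0.0019). In these 3 genes the groups did not overlap, and their calls held with any library left out. With 1 library left out fewer members were called, and fewer of all genes. On the FPKM scale 3 members were called, all higher, beside 229 of all genes.

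DHCR7, the last enzyme to cholesterol, rose by 0.49, SCD (140.0 and 149.7 FPKM with genistein) by 0.43 (SE 0.08, adjusted p = 0.0058), ACLY (329 and 299.9 FPKM) by 0.41 (SE 0.07, adjusted p = 0.0033), the isomerase EBP by 0.41 and ACSS2 by 0.40 log2 units. SCD, ACLY, EBP and ACSS2 lay near the fold limit. Corrected for GC content, ACLY (0.32), EBP (0.31) and ACSS2 (0.32) fell below it, while IDI1 (0.40 before, 0.47 after) passed it. SCD was not called without control I (0.46, adjusted p = 0.071), control II (0.42, adjusted p = 0.069) or genistein II (0.37, adjusted p = 0.042), and ACLY was not called without control I (0.41, adjusted p = 0.066) or genistein I (0.40, adjusted p = 0.031). ELOVL6 was the single member called lower (log2 fold change -0.57, SE 0.17, adjusted p = 0.043). Its reads numbered 235 and 185 in the controls and 97 and 234 with genistein, in libraries of different depth, and the call was lost without genistein I (-0.36, adjusted p = 0.29), control I (-0.56, adjusted p = 0.22) or control II (-0.58, adjusted p = 0.16), and by DESeq2 (-0.58, adjusted p = 0.068).

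The other regulated steps were not called with genistein in MiaPaCa2. SREBF1 stood at 169 and 156 FPKM (log2 fold change 0.30, 95% interval 0.02 to 0.59, adjusted p = 0.16) and SREBF2 at 36.6 and 43.01 FPKM (log2 fold change 0.27, 95% interval 0.08 to 0.47, adjusted p = 0.066). SQLE stood at 21.1 and 23.95 FPKM (log2 fold change 0.27, 95% interval 0.06 to 0.49, adjusted p = 0.096). These intervals exclude 0, but the adjusted p values do not pass. FASN at 74.1 and 61.3 FPKM had 0.04 (95% interval -0.31 to 0.39, adjusted p = 0.91), and HMGCS1 at 6.93 and 8.86 FPKM had -0.23 (95% interval -0.53 to 0.06, adjusted p = 0.30).

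In PANC1, genistein called 1 of 32 members, against 0.0591% of all genes. That member was SCD, which went from 113.1 and 116.8 to 185 and 190.3 FPKM (log2 fold change 0.70, SE 0.07, adjusted p = 0.038), and the groups did not overlap. Its value was 0.66 without control I, 0.66 without control II, 0.67 without genistein I and 0.65 without genistein II. The call was lost in each of these fits, but so were nearly all calls over all genes. With 1 library left in a group, these fits cannot tell whether SCD depends on a single library. The other members with large positive values in PANC1 did not pass. INSIG1 went from 29.3 and 34.6 to 51.96 and 54.7 FPKM (log2 fold change 0.71, 95% interval 0.42 to 0.99, adjusted p = 0.10), and FADS1 (log2 fold change 0.64, 95% interval 0.46 to 0.82, adjusted p = 0.056) and FADS2 (log2 fold change 0.62, 95% interval 0.36 to 0.88, adjusted p = 0.11) were also higher in value. At an unadjusted p of at most 0.05 there were 12 of the 32 members and 3252 of all 16909 genes. DESeq2 called 5 members (SCD, FADS1, FADS2 and INSIG1 higher, FASN lower), and the GC correction 6 (SCD, FADS1, FADS2, INSIG1, TM7SF2 and DHCR7), all higher. Over all genes these settings called 754 and 1241, in place of 10 in the main fit.

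FASN stood at 66.2 and 53.9 FPKM with genistein in PANC1 (log2 fold change -0.95, 95% interval -1.66 to -0.24, adjusted p = 0.17), and -0.28 with the GC correction. SREBF1 stood at 117 and 94.7 FPKM (log2 fold change -0.27, 95% interval -0.72 to 0.17, adjusted p = 0.48) and SREBF2 at 63.5 and 55.8 (log2 fold change 0.18, 95% interval -0.13 to 0.48, adjusted p = 0.50). In FPKM SREBF1 overlapped its controls, whereas both SREBF2 libraries lay above theirs. In TMM-scaled CPM, the scaling used in the tests, SREBF2 overlapped too, with 157.4 and 144.4 against 148.8 and 121.3 in the controls. HMGCS1 (13.01 and 12.7 FPKM, log2 fold change 0.07, 95% interval -0.46 to 0.60, adjusted p = 0.90), SQLE (49.1 and 58.4 FPKM, log2 fold change 0.16, 95% interval -0.08 to 0.40, adjusted p = 0.44) and ACLY (150.2 and 147 FPKM, log2 fold change 0.19, 95% interval -0.04 to 0.41, adjusted p = 0.34) were not called. The genistein response was not shown to differ between the lines for any member, with 0 called by limma-voom beside 0.0336% of all genes. At an unadjusted p of at most 0.05 there were 12 of the 32 members and 2057 of all 17863 genes. DESeq2 called 3, FADS1 and FADS2 with a higher and ACAT2 with a lower response in PANC1, and 185 of all genes.

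**Figure D3:**
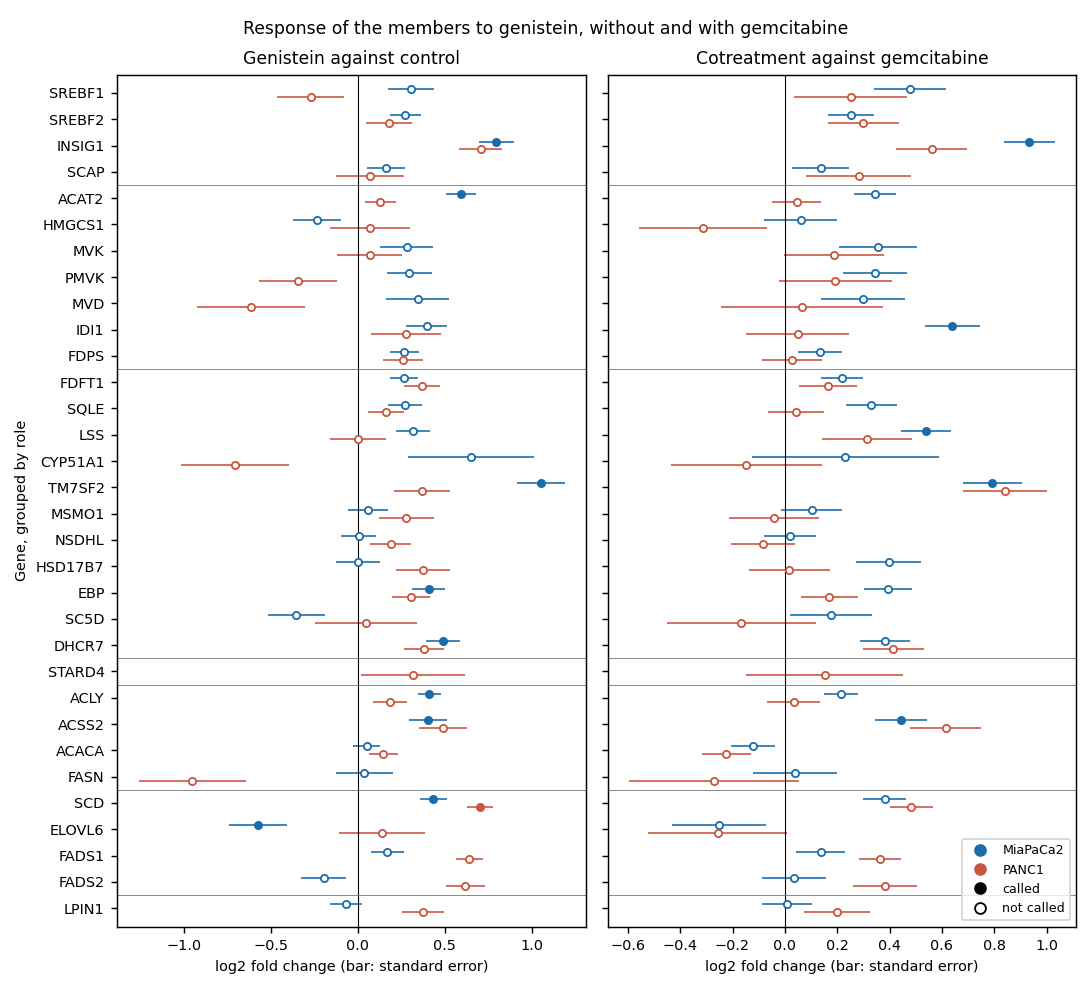
Log2 fold change with its standard error for genistein against control (left) and cotreatment against gemcitabine (right), by gene and line, with filled points for called genes. INSIG1 stood at 0.79 and 0.71 on the left and at 0.93 and 0.56 on the right, in MiaPaCa2 and PANC1.

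Genistein added to gemcitabine in MiaPaCa2 gave only higher calls among the members. Called were 5 of 31 members (16.1%), all higher, against a background of 5.88% called and 4.05% called higher, with a median of 0.25 beside -0.01 over all genes. INSIG1 went from 23.5 and 24.3 FPKM with gemcitabine to 46.9 and 44.4 in cotreatment (log2 fold change 0.93, SE 0.10, adjusted p = 0.00039). TM7SF2 went from 77.2 and 75.8 to 122 and 143 (log2 fold change 0.79, SE 0.11, adjusted p = 0.0020) and IDI1 from 27.3 and 31.1 to 40.5 and 37.1 (log2 fold change 0.64, SE 0.10, adjusted p = 0.0040). The groups did not overlap in any of these. LSS rose by 0.54 and ACSS2 by 0.45. By role these were 1 of 4 regulators, 1 of 7 mevalonate genes, 2 of 11 genes from squalene to cholesterol and 1 of 4 fatty acid synthesis genes. INSIG1, TM7SF2 and ACSS2 were also called with genistein alone, and IDI1 and LSS were not. After the GC correction ACSS2 (0.36) was below the fold limit, and SREBF1 (0.44) and HSD17B7 (0.47) were called higher. The TM7SF2 call was lost without gemcitabine II (0.76, adjusted p = 0.052), and the IDI1 call without gemcitabine I (0.61, adjusted p = 0.084) or gemcitabine II (0.67, adjusted p = 0.054). With 1 library left out, both the count of called members and that over all genes changed.

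Among the uncalled members of this comparison, SREBF1 had 0.48 (95% interval 0.18 to 0.78, adjusted p = 0.054), SREBF2 0.25 (95% interval 0.06 to 0.44, adjusted p = 0.10), SQLE 0.33 (95% interval 0.12 to 0.54, adjusted p = 0.059), ACLY 0.21 (95% interval 0.07 to 0.35, adjusted p = 0.068) and SCD 0.38 (95% interval 0.20 to 0.56, adjusted p = 0.016), the last passing the adjusted p but not the fold limit. FASN had 0.04 (95% interval -0.31 to 0.39, adjusted p = 0.91) and HMGCS1 0.06 (95% interval -0.24 to 0.36, adjusted p = 0.83). In PANC1 the same comparison called 0 of 32 members by limma-voom, beside 0.0177% of all genes. At an unadjusted p of at most 0.05 there were 8 of the 32 members and 2262 of all 16909 genes. DESeq2 called 4 (SCD, ACSS2, TM7SF2 and INSIG1), all higher, and 207 of all genes. TM7SF2 went from 26.2 and 28.7 to 49.04 and 55.3 FPKM (log2 fold change 0.84, 95% interval 0.47 to 1.22, adjusted p = 0.12), INSIG1 from 24.1 and 27.2 to 41.3 and 34.8 (log2 fold change 0.56, 95% interval 0.25 to 0.88, adjusted p = 0.16) and SCD from 72.4 and 78.7 to 108.8 and 108.3 (log2 fold change 0.48, 95% interval 0.30 to 0.67, adjusted p = 0.11). In all 3 the cotreated libraries lay above those with gemcitabine alone, but none passed the adjusted p. After the correction for GC content all 3 were called higher, as were ACSS2 and STARD4, and 1264 of all genes were called.

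Set against the untreated cells, cotreatment called a share of the members close to that of all genes in MiaPaCa2. Called were 13 of 31 members, 10 higher and 3 lower, a share of 41.9% beside a background of 40.5% called and 20.3% called higher. The median of the members was 0.29, and that of all genes -0.01, while the median size of the change regardless of sign was 0.38 and 0.46. TM7SF2 reached 122 and 143 FPKM, a log2 fold change of 2.16 (SE 0.13, adjusted p = 1.8e-07). IDI1 went from 18 and 14.2 to 40.5 and 37.1 FPKM (log2 fold change 1.18, SE 0.11, adjusted p = 3.5e-06), and MVD from 23.9 and 18.2 to 35.8 and 42.7 (log2 fold change 1.09, SE 0.17, adjusted p = 0.00022). All cotreated libraries lay above the controls in these genes. ACSS2 (1.07), ACAT2 (1.05), INSIG1 (0.96), EBP (0.65), the kinase PMVK (0.57), LSS (0.55) and DHCR7 (0.46) were the other members called higher.

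With the GC correction EBP, PMVK, LSS and DHCR7 were not called, MVD moved to 0.61, and the calls split into 9 higher and 6 lower. The lower members were ELOVL6 (log2 fold change -0.83, SE 0.17, adjusted p = 0.0014), ACACA (log2 fold change -0.81, SE 0.08, adjusted p = 6.3e-06) and LPIN1 (log2 fold change -0.52, SE 0.09, adjusted p = 0.00053). ACACA went from 42.8 and 50.9 to 35.96 and 28.7 FPKM and LPIN1 from 38.7 and 41.2 to 29.3 and 23.7, with no overlap. Without cotreatment II the value of LPIN1 was -0.40, adjusted p = 0.0035, just under the fold limit. SCD, which fell with gemcitabine and rose with genistein, had 93.7 and 83.4 FPKM (log2 fold change -0.38, 95% interval -0.55 to -0.20, adjusted p = 0.0018). SREBF1 had 104.5 and 127 FPKM (log2 fold change -0.12, 95% interval -0.42 to 0.17, adjusted p = 0.47).

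SREBF2 (42.6 and 36.6 FPKM, log2 fold change 0.32, 95% interval 0.13 to 0.52, adjusted p = 0.0084), SQLE (26.3 and 24.3 FPKM, log2 fold change 0.37, 95% interval 0.15 to 0.58, adjusted p = 0.0074) and ACLY (342 and 313 FPKM, log2 fold change 0.39, 95% interval 0.25 to 0.54, adjusted p = 0.00031) passed the adjusted p in MiaPaCa2 but not the fold limit. FASN (71.7 and 94.9 FPKM, log2 fold change 0.11, 95% interval -0.24 to 0.46, adjusted p = 0.60) and HMGCS1 (10.6 and 7.93 FPKM, log2 fold change -0.18, 95% interval -0.48 to 0.12, adjusted p = 0.31) did not pass. With the GC correction FASN was -0.43 and SREBF1 -0.56, both called lower, as was SCD (-0.48), and SQLE (0.55), SC5D (0.56) and HSD17B7 (0.47) were called higher.

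In PANC1, cotreatment called 5 of 32 members (15.6%), 2 higher and 3 lower, a share no higher than the 17.1% of all genes called, with a median of -0.07 beside 0.01. FASN (ENSG00000169710, chromosome 17, 80036214 to 80056170 on GRCh37) went from 154 and 101.96 to 44.4 and 85.5 FPKM (log2 fold change -1.16, SE 0.30, adjusted p = 0.034). Both pairs of libraries were far apart, and the call was lost without control I (-0.92, adjusted p = 0.076) or cotreatment I (-0.67, adjusted p = 0.11). With the GC correction its value was -1.05. ACACA went from 34.01 and 36.6 to 29.8 and 30.6 FPKM (log2 fold change -0.86, SE 0.09, adjusted p = 0.0012), a call that held with any library left out but not on the FPKM scale (-0.22, adjusted p = 0.31). SREBF1 went from 138 and 103.9 to 64.4 and 79.5 (log2 fold change -0.81, SE 0.20, adjusted p = 0.025), and was not called without control I (-0.65, adjusted p = 0.051) or cotreatment I (-0.59, adjusted p = 0.10). Of the 4 fatty acid synthesis genes 2 were called lower and 1 higher.

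The 2 members called higher in PANC1 were ACSS2 (24.4 and 26.1 to 42.5 and 44.02 FPKM, log2 fold change 0.55, SE 0.13, adjusted p = 0.025) and TM7SF2 (33.4 and 31.5 to 49.04 and 55.3 FPKM, log2 fold change 0.55, SE 0.15, adjusted p = 0.042). Their groups did not overlap. ACSS2 was not called without control II (0.39, adjusted p = 0.11), cotreatment I (0.62, adjusted p = 0.050) or cotreatment II (0.48, adjusted p = 0.10), nor TM7SF2 without control II (0.40, adjusted p = 0.17) or cotreatment II (0.37, adjusted p = 0.19). With library size alone as the scaling, the calls split into 4 higher and 3 lower, with DESeq2 size factors into 1 and 3, on the FPKM scale into 4 and 1, and with the GC correction into 2 and 7, HMGCS1 (-0.70), FDFT1, MSMO1 and ELOVL6 joining the lower. The GC correction called 5081 of all genes here. With cotreatment I or II left out, fewer members were called, and fewer of all genes. SCD (108.8 and 108.3 FPKM, log2 fold change -0.24, 95% interval -0.42 to -0.06, adjusted p = 0.062), INSIG1 (41.3 and 34.8, 0.10, 95% interval -0.20 to 0.39, adjusted p = 0.64) and ACLY (121 and 125, -0.28, 95% interval -0.51 to -0.05, adjusted p = 0.082) were not called. SREBF2 (38.7 and 45.2, -0.01, 95% interval -0.31 to 0.29, adjusted p = 0.96), HMGCS1 (11.2 and 7.48, -0.59, 95% interval -1.13 to -0.05, adjusted p = 0.12) and SQLE (48.2 and 40.99, -0.18, 95% interval -0.42 to 0.06, adjusted p = 0.25) were not called either. The comparisons with control of 1 line share its 2 control libraries, so their values stand side by side here and were not correlated.

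**Figure D4:**
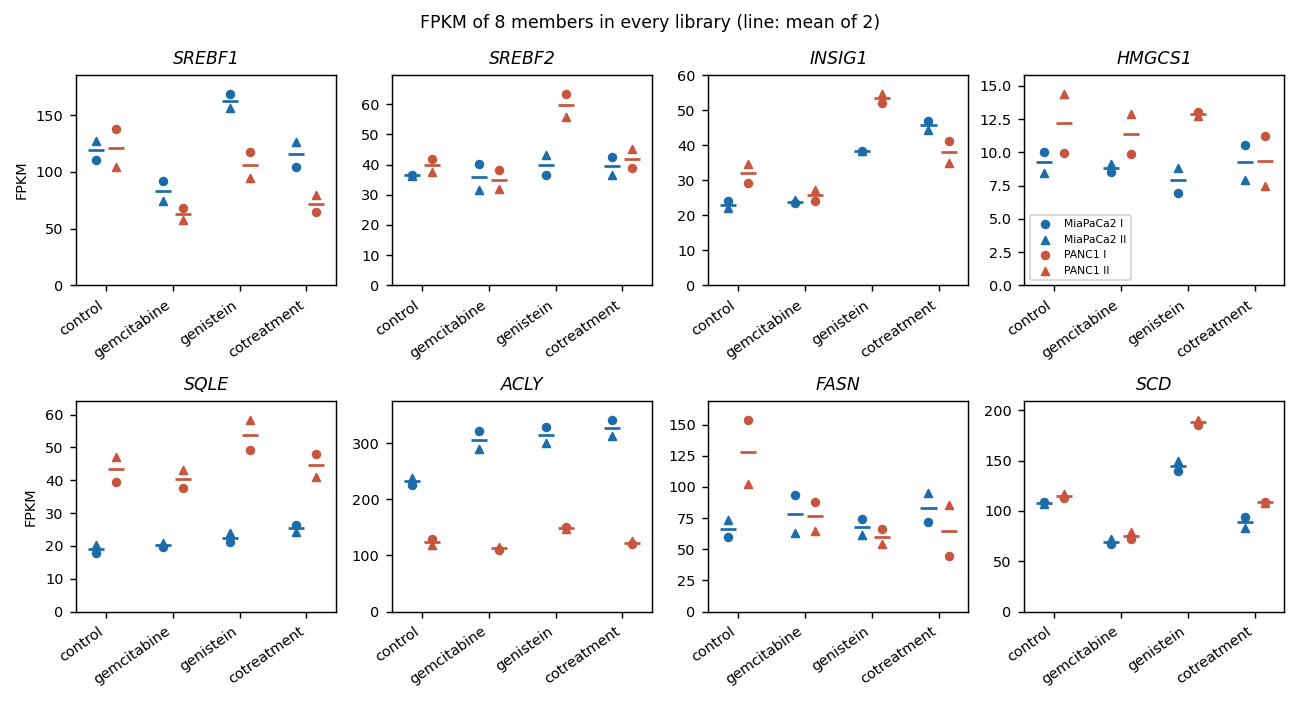
FPKM of 8 members in every library by treatment, with circles for replicate I, triangles for II, a line for the mean of 2, and each axis starting at 0. SCD was lowest with gemcitabine (66.7 and 71.8 in MiaPaCa2, 72.4 and 78.7 in PANC1) and highest with genistein (140.0 and 149.7, 185 and 190.3).

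Whether the drugs acted together beyond the sum of their log2 effects was tested as an interaction. Among the members, 0 were called in MiaPaCa2 and 0 in PANC1 by limma-voom, by edgeR and by DESeq2. Over all genes in MiaPaCa2 and PANC1, DESeq2 called 46 and 4, edgeR 4 and 0, and limma-voom 0.0249% and 0%. At an unadjusted p of at most 0.05 there were 1346 of 16064 genes in MiaPaCa2 and 832 of 16909 in PANC1. Among them were 2 members in MiaPaCa2, SC5D (log2 fold change 0.53, 95% interval 0.04 to 1.02, adjusted p = 0.58) and HSD17B7 (log2 fold change 0.39, 95% interval 0.01 to 0.78, adjusted p = 0.59), and 2 in PANC1, ACACA (log2 fold change -0.37, 95% interval -0.66 to -0.08, adjusted p = 0.73) and FADS1 (log2 fold change -0.28, 95% interval -0.54 to -0.01, adjusted p = 0.73), named after their values were seen. For TM7SF2 the interaction was -0.26 (95% interval -0.64 to 0.13, adjusted p = 0.74) in MiaPaCa2, where its separate log2 changes of 1.37 and 1.05 stand beside 2.16 for both drugs.

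The interaction of SREBF1 was 0.17 (95% interval -0.24 to 0.59, adjusted p = 0.85) in MiaPaCa2 and 0.52 (95% interval -0.15 to 1.19, adjusted p = 0.73) in PANC1. That of SREBF2 was -0.02 (95% interval -0.29 to 0.25, adjusted p = 0.98) and 0.12 (95% interval -0.31 to 0.56, adjusted p = 0.84), and that of INSIG1 0.14 (95% interval -0.17 to 0.44, adjusted p = 0.84) and -0.14 (95% interval -0.57 to 0.28, adjusted p = 0.81). For SCD it was -0.05 (95% interval -0.30 to 0.19, adjusted p = 0.94) and -0.22 (95% interval -0.47 to 0.04, adjusted p = 0.73), and for FASN 0.00 (95% interval -0.49 to 0.49, adjusted p = 1.0) and 0.68 (95% interval -0.35 to 1.71, adjusted p = 0.73). All of these intervals include 0, and the widest, for FASN in PANC1, leaves room for values above 1. HMGCS1 (0.29 and -0.38), SQLE (0.06 and -0.12) and ACLY (-0.20 and -0.15) were not called either.

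**Figure D5:**
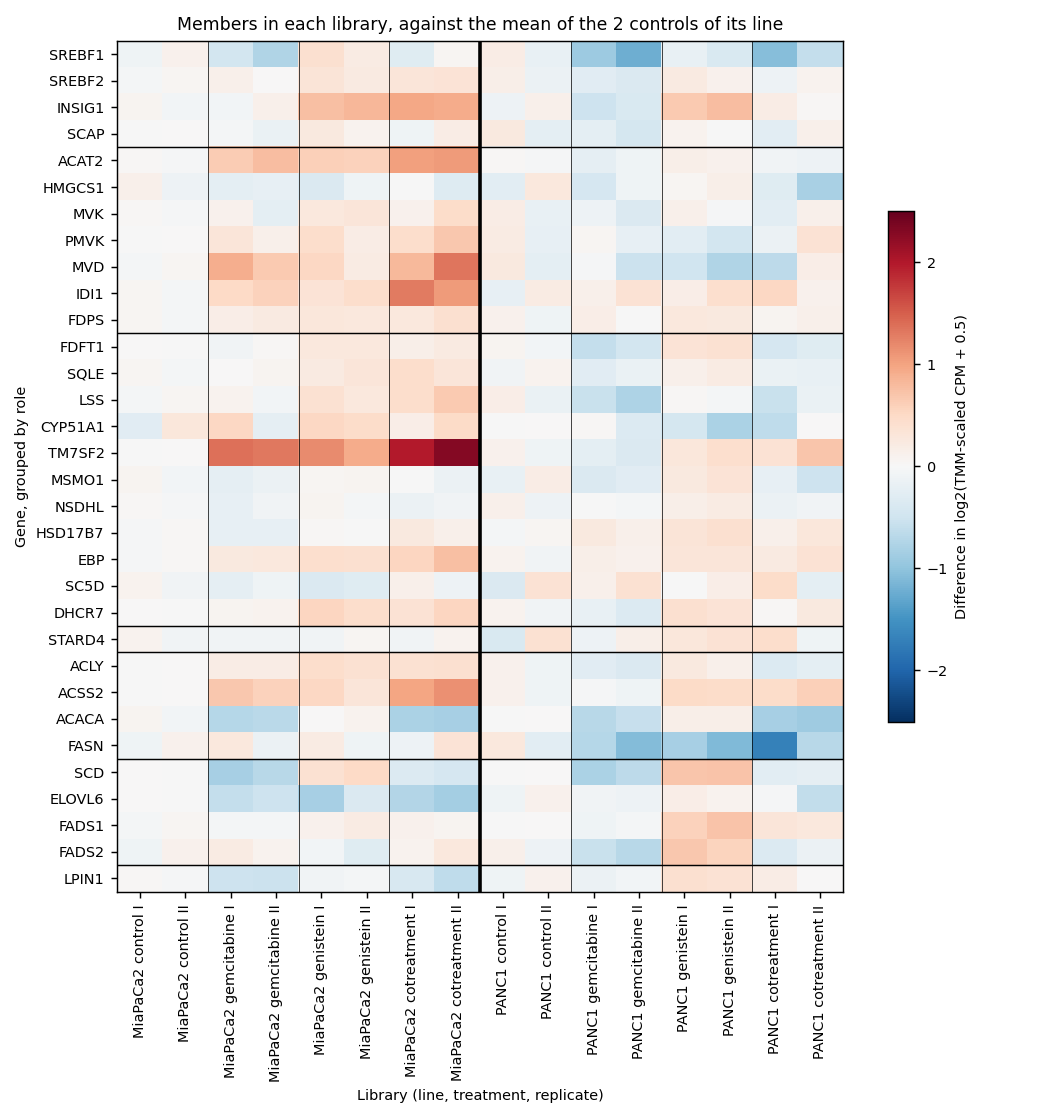
Difference in log2(TMM-scaled CPM + 0.5) of each of the 32 genes in each of the 16 libraries from the mean of the 2 controls of its line, with red above and blue below, and the lines parted by the thick rule. The TM7SF2 row deepens from gemcitabine and genistein to cotreatment in MiaPaCa2, and the SREBF1, ACACA and SCD rows are blue with gemcitabine in both lines.

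Other genes of the pathways were counted in 5 lists. Over all genes tested, the shares called to read them against were 29.6% with gemcitabine, 8.31% with genistein and 40.5% with cotreatment in MiaPaCa2, and 7.52%, 0.0591% and 17.1% in PANC1. In PANC1 none of their genes was called with genistein alone or with genistein added to gemcitabine by limma-voom, and no interaction was called in either line. Of 8 genes for SREBP processing and degradation, RNF145, a ubiquitin ligase of the endoplasmic reticulum, fell in MiaPaCa2 with gemcitabine (log2 fold change -0.57, SE 0.10, adjusted p = 0.00075), genistein (-0.44) and cotreatment (-0.99), and in PANC1 with cotreatment (log2 fold change -0.90, SE 0.15, adjusted p = 0.0056). It was the single gene called with either drug alone in MiaPaCa2 and the single one called with cotreatment in PANC1. Of 12 other sterol genes, 5 were called higher and 0 lower with genistein in MiaPaCa2. With gemcitabine there, 2 of the 12 were higher and 1 lower, the lower one being LBR, a nuclear envelope protein with the same reductase activity as TM7SF2 (log2 fold change -0.49, SE 0.10, adjusted p = 0.0025). In PANC1 none of the 12 was called with either drug alone by limma-voom.

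In MiaPaCa2 cotreatment 5 of the 12 were higher and 1 lower, and in PANC1 cotreatment 2 were higher, among them NPC1, which moves cholesterol out of lysosomes (log2 fold change 0.46, SE 0.08, adjusted p = 0.0074).

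Of 8 genes of the LXR factors, their targets and sterol efflux, 6 were higher and 1 lower in MiaPaCa2 cotreatment, where 40.5% of all genes were called. Among the higher ones the sterol exporter ABCG1 rose by 1.47 (SE 0.13, adjusted p = 1.9e-06). In PANC1 cotreatment 1 of the 8 was higher and 1 lower, and MYLIP, a ubiquitin ligase, rose by 1.02 (SE 0.15, adjusted p = 0.0037). In MiaPaCa2, 4 of the 8 were higher and 1 lower with gemcitabine, and 3 were higher with genistein. Of 17 fatty acid supply genes tested, 5 were higher and 4 lower with gemcitabine in MiaPaCa2 and 1 and 1 in PANC1, while 9 were higher and 2 lower in MiaPaCa2 cotreatment and 3 and 3 in PANC1. The elongase ELOVL7 rose with gemcitabine in both lines, by 1.72 (SE 0.20, adjusted p = 4.9e-05) in MiaPaCa2 and 1.79 (SE 0.28, adjusted p = 0.011) in PANC1. SLC25A1, which exports the citrate that ACLY uses, rose in MiaPaCa2 with genistein (log2 fold change 0.86, SE 0.12, adjusted p = 0.0017) and with cotreatment (1.52). Of 10 fatty acid oxidation genes, 5 were higher in MiaPaCa2 cotreatment and 3 higher and 1 lower in PANC1 cotreatment. CPT2 rose with gemcitabine in MiaPaCa2 (log2 fold change 1.03, SE 0.09, adjusted p = 7.7e-06) and CPT1A fell in PANC1 (log2 fold change -0.48, SE 0.08, adjusted p = 0.012), and both are carnitine transferases of the mitochondrion.

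How reads were assigned limits some members. CYP51A1, a demethylase of lanosterol, had 18 to 125 reads per library although its deposited FPKM ran from 21.4 to 54.5. Exons of other annotated genes on its strand cover 68.2% of its own in GENCODE v44 on GRCh37. Its call in the untreated lines (1.49) rests on these few reads. The FPKM of ELOVL6 swung between replicates, from 10.4 to 0.976 in PANC1 cotreatment, with its transcript ENST00000513003, at 9.57 and close to 0 FPKM, whereas ENST00000302274 stood at 0.817 and 0.329. On the FPKM scale ELOVL6 was not called in the untreated lines (-0.64, adjusted p = 0.52) or in MiaPaCa2 cotreatment (-0.57, adjusted p = 0.47). The 25 listed transcripts of SREBF1 include 22 above 1 FPKM in some library, and the highest, ENST00000490796, stood at 33.6 and 43.5 FPKM in the MiaPaCa2 controls and 22.8 and 18.8 with gemcitabine, and at 27.7 and 22.4 and 13.9 and 11.9 in PANC1.

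Genes on the opposite strand overlap 37.7% of the exons of HMGCS1, 18.6% of FDPS, 17.2% of ACAT2, 15% of IDI1 and 4.79% of FADS1, the last with FADS2. A gene on the same strand shares 36.4% of the exons of EBP. TCP1, which overlaps ACAT2, had -0.28 with gemcitabine in MiaPaCa2, opposite to the rise of ACAT2. HSD17B7 has a near-identical copy in the genome, so its reads are uncertain. The authors removed reads with several alignments. The remaining members, MVK, PMVK, FDPS, FDFT1, SCAP, MSMO1, NSDHL, HSD17B7, EBP and SC5D, ran between -0.204 and 0.259 log2 units with gemcitabine in MiaPaCa2, where none was called.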

How the data were processed

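The authors sequenced poly-A libraries made with a strand-keeping kit as single reads, aligned them to GRCh37 with TopHat2 2.0.4, removed reads with several alignments with Picard 1.29, counted reads per gene with HTSeq 0.6.1 and computed FPKM with Cufflinks 2.1.1. The annotation release and the strand setting of the counting were not given in the sources used here. The deposited files hold raw counts per gene, and FPKM values per gene and transcript, for each of 16 libraries. Neither table was changed before use.

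Counts were tested with limma-voom (limma 3.58.1, edgeR 4.0.16 for TMM scaling and its filter on low counts, R 4.3.3). The 8 libraries of a line were fitted together for comparisons within it, and all 16 for comparisons between lines. The p values were adjusted over all genes tested by the Benjamini-Hochberg method, and every adjusted p in the text is from limma-voom unless another tool is named. Calls required an adjusted p no higher than 0.05, a log2 fold change no smaller than 0.4 in size, and an average above 1 FPKM among treated libraries (in either line for the untreated lines). Interactions and differences in response were called by the adjusted p alone. The 13 comparisons were repeated with edgeR's quasi-likelihood test, DESeq2 1.42.0, other scalings and filters, log2(FPKM + 1) with limma-trend, a loess correction of each library for exon GC content (span 0.3, 87.9% of genes with a value), a replicate block, and each library left out. The fits were tested on simulated counts. All 32 members are named, with full values for 8 fixed genes (SREBF1, SREBF2, INSIG1, HMGCS1, SQLE, ACLY, FASN and SCD) and, per comparison, up to 3 called members with the largest rise and 3 with the largest fall. From the wider lists only genes among the 3 largest calls are named, and some of these are not reported here. The members and the lists were chosen with earlier results of these data known. Positions are from GENCODE v44 on GRCh37, and promoter windows from RefSeq on GRCh38.p14. Intervals cover the spread between libraries and assume that 2 libraries per group stand for it.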

Additional observations from a re-analysis of the deposited data

Results flagged for a closer look

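In 8 of the 32 members the gemcitabine response differed between the lines by limma-voom at an adjusted p of at most 0.05. This was tested as an interaction of drug and line in a model of all 16 libraries. Over all genes tested, 15.3% were called and 9.06% had a lower response in PANC1. At an adjusted p of at most 0.01, 3 members were called, beside 820 of all genes. The difference in log2 fold change, PANC1 less MiaPaCa2, was -1.76 for TM7SF2, -0.96 for ACAT2, -0.87 for FADS2 and -0.79 for ACSS2. It was -0.77 for LSS, -0.59 for ACLY, -0.59 for FDFT1 and -0.58 for INSIG1. Taken line by line, the log2 fold changes (MiaPaCa2, then PANC1) were 1.37 and -0.29 for TM7SF2, 0.70 and -0.16 for ACAT2, 0.01 and -0.66 for LSS and 0.02 and -0.46 for INSIG1. The groups hold 2 libraries each, so no single library could be tested as standing apart.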

How the results depend on the processing

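Of 45 calls of named members, edgeR's quasi-likelihood test kept all 45, DESeq2 lost 1, DESeq2 size factors 2, library size alone 4, no filter on low counts 3, limma-trend on FPKM 12, an adjusted p of at most 0.01 lost 11, the GC correction 3 (plus 1 reversed) and the replicate block 8. Of the other called members, ACSS2 with genistein in MiaPaCa2 also lost its call with the block (adjusted p = 0.063). The deviations of same-numbered libraries had a mean correlation of -0.06 in MiaPaCa2 (from -0.28 to 0.14) and -0.08 in PANC1 (from -0.53 to 0.29). The numbers were not taken as pairs, though these values cannot exclude that some libraries share a batch. With the replicate block, PANC1 gemcitabine called 3 members in place of 6, PANC1 genistein 0 in place of 1 and PANC1 cotreatment against control 2 in place of 5. MiaPaCa2 genistein (9 members) gave 5 with library size alone and 3 with limma-trend. MiaPaCa2 cotreatment against gemcitabine (5) gave 9 by the adjusted p alone, 1 with limma-trend and 3 with all 16 libraries in one model. PANC1 gemcitabine (6) gave 2 at an adjusted p of at most 0.01, 3 with limma-trend, and 10 with the GC correction with or without the block. PANC1 genistein (1) gave 0 at 0.01, with DESeq2 size factors and with limma-trend, 5 by DESeq2, 2 with library size alone, 4 with all 16 libraries, and 6 with the GC correction with or without the block. PANC1 cotreatment against control (5) gave 1 at 0.01 and 9 with the GC correction with or without the block. PANC1 cotreatment against gemcitabine (0) gave 4 by DESeq2 and with all 16 libraries, and 5 with the GC correction with or without the block. The difference in gemcitabine response (8) gave 3 at 0.01, 15 with the GC correction and 14 with the block added, and that in genistein response (0) gave 3 by DESeq2 and 2 with the GC correction with or without the block. FASN reversed with the GC correction, to -0.47 in MiaPaCa2 gemcitabine, -0.43 in MiaPaCa2 cotreatment and -0.17 in the untreated lines, and with the block added to -0.47, -0.43 and -0.20. With 1 library left out, the counts ran from 8 to 9 for MiaPaCa2 gemcitabine, 3 to 7 for MiaPaCa2 genistein, 12 to 16 for MiaPaCa2 cotreatment, 1 to 11 for cotreatment against gemcitabine there, 0 to 9 for PANC1 gemcitabine, 0 for PANC1 genistein, 2 to 6 for PANC1 cotreatment against control, 19 to 23 for the untreated lines, 2 to 15 for the gemcitabine response and 0 to 1 for the genistein response. The group left with 1 library was assumed to vary like the others, and the counts over all genes changed in these fits too. Library size alone shifted the median of all genes by 0.11 in MiaPaCa2 gemcitabine, 0.11 in PANC1 gemcitabine, 0.16 in PANC1 cotreatment and 0.10 in the gemcitabine response, and in PANC1 gemcitabine called 1167 genes higher and 317 lower in place of 759 and 513. Counts over all genes moved with the settings too, as from 10 by limma-voom to 754 by DESeq2 in PANC1 genistein. The cause of these changes was not tested.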

Other observations

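Before any drug, some genes in each of the wider lists differed between the lines, as did 52.3% of all genes tested. Of 8 genes for SREBP processing and degradation, 1 was called higher and 2 lower in PANC1. Of 12 other sterol genes, 4 were higher and 3 lower. Of 8 genes of the LXR factors and sterol efflux, 2 were called higher and 4 lower in untreated PANC1 than in untreated MiaPaCa2 by limma-voom, where 52.3% of all genes were called. Those with the largest values were the sterol exporter ABCG1 (log2 fold change -4.92), the phosphodiesterase SMPDL3A (1.97) and the sterol receptor NR1H3 (1.67). Of 17 fatty acid supply genes, 1 was higher and 8 lower, led by the desaturase SCD5 (-2.72), the carbohydrate-responsive factor MLXIP (1.98) and the elongase ELOVL7 (-1.85). Of 10 fatty acid oxidation genes, 4 were higher and 4 lower, with CPT1A at 2.92, ECI1 at 1.33 and SLC25A20, the carnitine carrier, at 1.05.

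The gemcitabine response of the same lists also differed between the lines for some genes. Of the oxidation genes, 4 had a lower response in PANC1, among them CPT2 (-1.04), ACADVL (-0.82) and HADHB (-0.67). Of 12 other sterol genes, 3 had a lower response, among them C14orf1 (-0.50) and TMEM97 (-0.41), against 15.3% of all genes called.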
